A study of Mus musculus with 12 samples.

Results

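The 10 cyclophilin genes described here are Ppia, Ppib, Ppic, Ppid, Ppie, Ppif, Ppig, Ppih, Ppil1 and Ppil2, and their probes were chosen by gene symbol in the platform annotation. They had 11 of the 38784 probes on the array, 2 of them for Ppia and 1 for each other gene. All 11 had enough values to be tested, so that 10 of 14523 genes tested were cyclophilins of this list. RNA came from mouse 3T3 cells, an established fibroblast line, in 4 groups of 3 arrays: control cells and cells given Shld1 at 10 nM, 100 nM or 1 µM. The ligand Shld1 stabilizes proteins that carry an unstable form of FKBP12, which belongs to another family of prolyl isomerases. Each array carried the cell RNA in Cy5 and a commercial mouse reference RNA in Cy3, with no dye swap. Whether the cells carried a fusion with that domain, the length of the treatment and what the control cells received are not given in these sources. The labels do not say that replicates were separate cultures, so p-values measure only the spread between these samples. The labels of replicate 1 at each dose give the concentration without the compound's name.

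Cyclophilins catalyse the cis-trans isomerisation of peptide bonds before proline, which can limit how fast a protein folds. They were found as the receptors of cyclosporin, and the complex of cyclophilin A with the drug inhibits the phosphatase calcineurin. Members work in the cytosol, the secretory pathway, the mitochondrial matrix and the spliceosome. In fibroblasts the secretory members are best known for their part in collagen folding, and Ppia is widely used as a reference transcript in expression studies.

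Values are log2 ratios of cell RNA over reference RNA after each array was centred on its median, so 0 is the median probe. A ratio is not an amount, because the reference level of each gene is unknown, and it cannot be told apart from a probe's own dye bias. The log base was taken as 2 and the direction from the labelled dyes, and every sign would turn if they were coded as reference over sample. Each array had 30649 to 33615 values, and the deposited medians lay between -0.20 and -0.10. Array pairs correlated at 0.656 to 0.846, and signal over background is unknown here. Of all 14523 genes, 26.5% were called higher and 19.6% lower in control cells than in the reference. All 12 fibroblast markers were above it (10 called higher; Lum 4.20, Col1a1 1.11, Col3a1 0.01), while 4 of 5 measured leukocyte markers and 3 of 3 macrophage markers were called lower. Markers of other cell types were mixed. Of 5 epithelial markers 0 were called higher and 2 lower (Krt18 -1.50, Epcam 0.33), of 3 measured endothelial markers 1 higher and 0 lower (Tek 0.70), and of 4 measured muscle markers 1 higher and 0 lower (Des 0.94).

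The promoters of 7 of the 10 genes were matched in RefSeq on GRCm38.p6, with no entry used for Ppic, Ppid or Ppie. The 250 bases before the start site are printed for 3 genes, chosen after their ratios were seen. Ppia and Ppil1 had the smallest adjusted p against the reference, and Ppil2 had the control mean nearest 0. Capitals mark matches on either strand to a GC box, a TATA box, a CCAAT box or an ETS core, and each sequence reads 5′ to 3′ along the gene, toward its start. The windows are chr11:6415617-6415866 on the plus strand for Ppia, chr17:29263972-29264221 on the minus strand for Ppil1 and chr16:17111253-17111502 on the minus strand for Ppil2.
Ppia: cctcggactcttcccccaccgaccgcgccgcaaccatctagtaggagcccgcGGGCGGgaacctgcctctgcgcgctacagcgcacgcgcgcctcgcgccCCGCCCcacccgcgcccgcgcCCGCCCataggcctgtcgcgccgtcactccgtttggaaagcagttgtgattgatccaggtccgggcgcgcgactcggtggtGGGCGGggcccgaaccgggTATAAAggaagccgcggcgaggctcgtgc
Ppil1: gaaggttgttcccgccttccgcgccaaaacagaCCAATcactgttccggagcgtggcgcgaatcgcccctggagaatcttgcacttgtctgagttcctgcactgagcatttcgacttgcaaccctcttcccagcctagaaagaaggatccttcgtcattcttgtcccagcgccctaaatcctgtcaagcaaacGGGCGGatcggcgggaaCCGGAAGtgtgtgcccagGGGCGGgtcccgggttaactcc
Ppil2: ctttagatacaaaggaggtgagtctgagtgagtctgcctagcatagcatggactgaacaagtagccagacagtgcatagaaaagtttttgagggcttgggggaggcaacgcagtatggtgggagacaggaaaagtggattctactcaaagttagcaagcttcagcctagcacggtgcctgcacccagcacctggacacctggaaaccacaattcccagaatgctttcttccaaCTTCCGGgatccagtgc
The Ppia window held 4 GC boxes and a TATA box starting 29 bases before the start site, and 72.4% of its bases were G or C. The Ppil1 window held 2 GC boxes, 1 CCAAT box and an ETS core starting 40 bases before the start site, at 58.0% G or C. The Ppil2 window held only an ETS core, starting 17 bases before the start site, at 50.4% G or C.

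Among the 7 promoters, 6 held a GC box, searched as GGGCGG on both strands, against 32.7% of 32851 promoters of the same length. The ETS core CCGGAAG was found in 4 (Ppih, Ppif, Ppil1 and Ppil2), against 6.91% of all promoters. The CCAAT box, searched by those 5 letters, was found in 3 (Ppib, Ppif and Ppil1), against 33.8%. The TATA box, searched as TATAAA, was found in Ppia only, against 12.4%. The median share of G and C was 62.8%, against 52.4% for all promoters. The motifs were chosen with the sequences in view, and a match is a description of letters, not a site of binding.

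Control 3T3 cells had higher ratios than the reference RNA at 6 of 11 cyclophilin probes and lower at 0 (limma adjusted p under 0.05). In the same comparison 43.3% of the 30357 tested probes were called, 23.4% higher and 19.9% lower. The called probes were both of Ppia and those of Ppil1, Ppie, Ppid and Ppig. With 1 value per gene, 5 of 10 cyclophilins were called higher and 0 lower, beside 26.5% and 19.6% of all genes. The highest ratio was that of Ppia probe 25599, at 1.13 ± 0.09 (SD, n = 3; 95% interval 0.86 to 1.40, adjusted p = 4.57e-05). Ppil1, a spliceosome component, stood at 0.63 ± 0.13 (n = 3; adjusted p = 0.000887), and Ppie, a spliceosomal cyclophilin with an RNA recognition motif, at 0.53 ± 0.20 (n = 3; adjusted p = 0.00516). These 3 probes stayed called under every alternative in which they were tested.

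The calls of the other 3 probes depended on the setting. Ppid, the Hsp90 co-chaperone cyclophilin 40, stood at 0.50 ± 0.24 (n = 3; adjusted p = 0.0112), and Ppia probe 30763 at 0.42 ± 0.09 (n = 3; adjusted p = 0.0131). Ppig, a nuclear cyclophilin with an arginine and serine rich tail, stood at 0.64 ± 0.42 (n = 3; adjusted p = 0.0456). None of these 3 passed without centring (limma adjusted p 0.0586, 0.0825 and 0.101) or after quantile normalization (0.0527, 0.0575 and 0.0901). With fewer control arrays, Ppid did not pass without replicate 1 (ratio 0.39, limma adjusted p = 0.0895) or 2 (0.49, 0.0558), and Ppia probe 30763 without replicate 2 (0.42, 0.0536) or 3 (0.37, 0.0735). Ppig was called in 12 of 21 alternatives, with adjusted p from 0.0185 to 0.25. Without control replicate 2 only 3 of the 11 probes were called, those of Ppil1 and Ppie and Ppia probe 25599. Without centring, 37.9% of the probes called over the whole array were higher, against 54.1% with it.

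The 5 probes that missed the threshold had ratios near 0. Their control means were 0.23 ± 0.14 for Ppif (adjusted p = 0.188), 0.16 ± 0.13 for Ppic (0.27), -0.03 ± 0.20 for Ppil2 (0.823), -0.09 ± 0.20 for Ppih (0.611) and -0.10 ± 0.37 for Ppib (0.667), with n = 3 each and limma's adjusted p. The plot of control ratios against the reference shows all 11 with their intervals.

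**Figure D1:**
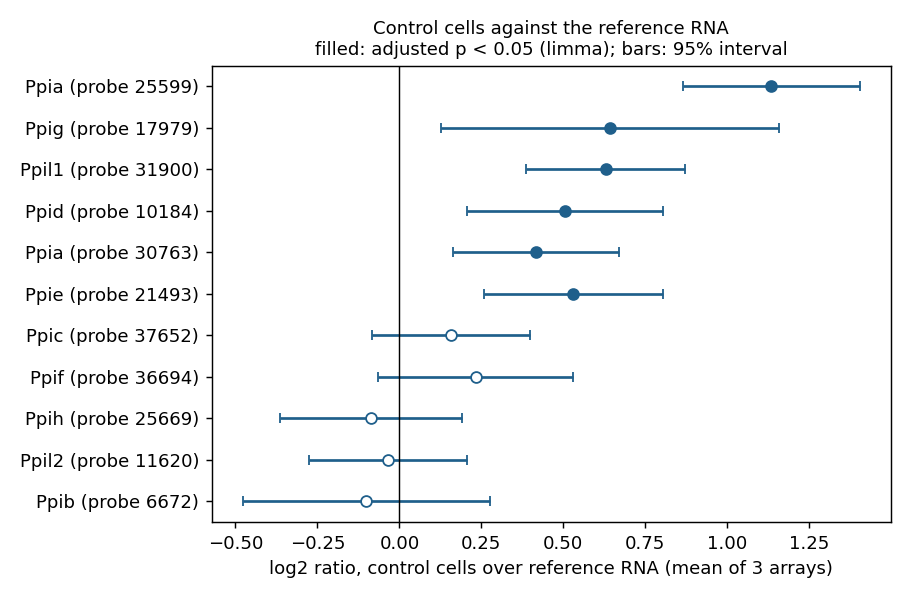
Mean log2 ratio of the 3 control arrays over the reference RNA (x axis) for each of the 11 cyclophilin probes (y axis), with 95% intervals from limma and filled points for an adjusted p under 0.05. The 6 filled points run from 0.42 (Ppia probe 30763) to 1.13 (Ppia probe 25599), and the intervals of the other 5 cross 0.

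Over all arrays, 6 probes were above the array median on every array that measured them: both of Ppia and those of Ppig, Ppil1, Ppid and Ppie. In the uncentred values Ppia probe 30763 and Ppie were each above 0 on 11 of 12 arrays, and the other 4 on all their arrays. Ppic was above the median on 11 of 12 arrays, but only 2 were above 0 without centring. In the order of the mean ratio, neighbours differed by more than the larger of their SDs only between Ppia probe 25599 and Ppig (0.44) and between Ppie and Ppic (0.25). The other 8 pairs of neighbours lay within that spread.

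**Figure D2:**
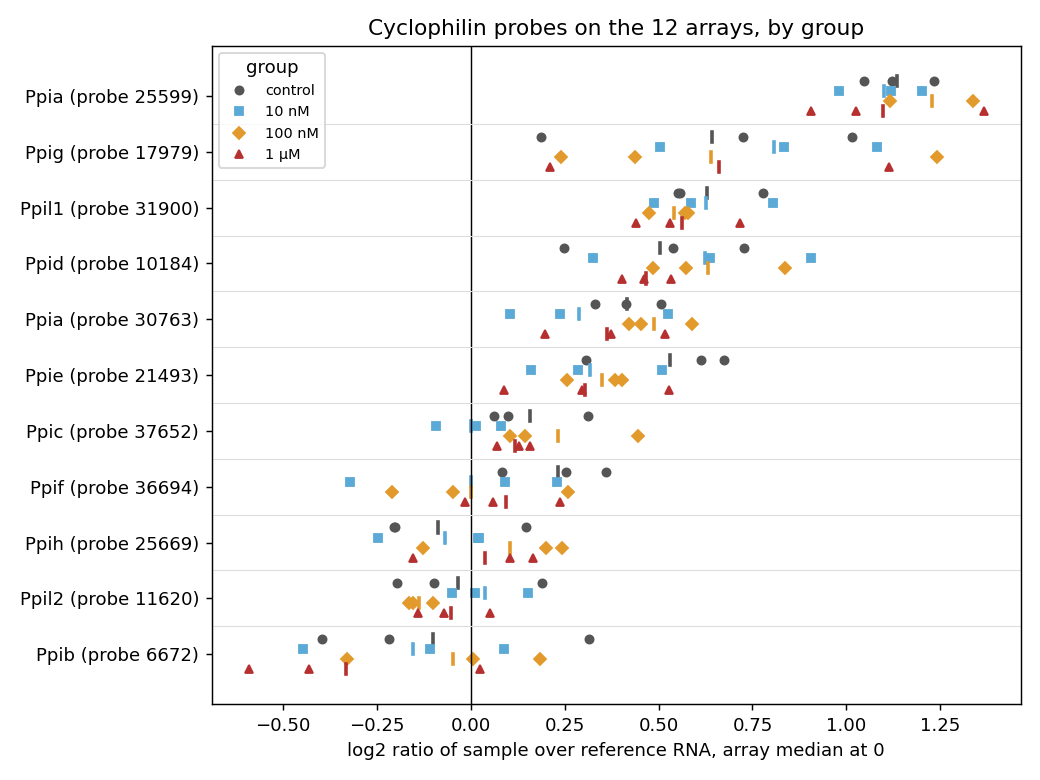
Log2 ratio of sample over reference RNA, with the array median at 0 (x axis), for the 11 cyclophilin probes (y axis) on each of 12 arrays, coloured by group. Ppia probe 25599 lies between 0.91 and 1.37 on all 11 arrays that measured it, and every dose group overlaps the control arrays in every row.

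Values by array are given in the order of replicates 1, 2 and 3. Ppia encodes cyclophilin A, the abundant cytosolic member and the main target of cyclosporin. Its probe 25599 read 1.12, 1.05 and 1.23 in control cells, 0.98, 1.12 and 1.20 at 10 nM, 1.34 and 1.12 on the 2 arrays measured at 100 nM, and 0.91, 1.37 and 1.03 at 1 µM. Its probe 30763 read 0.33, 0.41 and 0.51 in control cells, 0.10, 0.24 and 0.52 at 10 nM, 0.42, 0.45 and 0.59 at 100 nM, and 0.52, 0.37 and 0.20 at 1 µM. The groups overlapped for both probes, and the lowest and highest values of probe 25599 were both at 1 µM. At 1 µM the change against control was -0.04 ± 0.17 (SE) for probe 25599 and -0.05 ± 0.17 for probe 30763.

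The Ppia probes gave different ratios on the same arrays. Probe 25599 was higher on each of the 11 arrays that measured both, by 0.76 ± 0.17 (SD, n = 11; 0.39 to 0.99). The smallest and the largest gap were both at 1 µM, in replicates 1 and 2. Both probes are annotated to the same transcript record. Among 3232 genes with 2 tested probes the median gap was 0.493, and 68.7% had a smaller gap than Ppia. Ppia has many near-identical processed pseudogenes, and whether either probe also reads such copies was not tested, so the size of the Ppia ratio is uncertain.

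**Figure D3:**
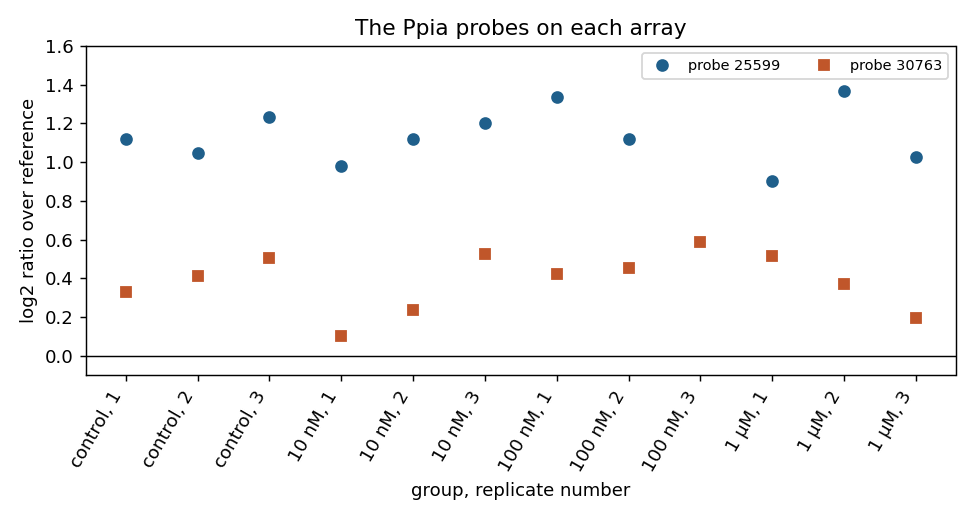
Log2 ratio over the reference RNA (y axis) of the Ppia probes on each of 12 arrays (x axis, by group and replicate number). Probe 25599 has no value on 100 nM replicate 3 and lies above probe 30763 on the other 11 arrays, by 0.39 to 0.99.

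Ppid carries a tetratricopeptide domain that binds Hsp90. It read 0.73, 0.54 and 0.25 in control cells, 0.32, 0.91 and 0.64 at 10 nM, 0.49, 0.57 and 0.84 at 100 nM, and 0.40, 0.53 and 0.46 at 1 µM. All 12 values were above 0, the 1 µM arrays lay inside the range of the control arrays, and the 10 nM arrays held the highest value. Its changes were 0.12 ± 0.19 (SE) at 10 nM, 0.13 ± 0.19 at 100 nM and -0.04 ± 0.19 at 1 µM.

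Ppib encodes cyclophilin B of the endoplasmic reticulum, which forms a complex with P3h1 and Crtap that modifies collagen proline. It read 0.31, -0.40 and -0.22 in control cells, -0.11, 0.09 and -0.45 at 10 nM, -0.33, 0.01 and 0.18 at 100 nM, and -0.43, -0.59 and 0.03 at 1 µM. The values crossed 0 within every group, and the highest and the lowest were in control replicate 1 and in 1 µM replicate 2. The change at 1 µM was -0.23 ± 0.24 (SE; 95% interval -0.77 to 0.30), about the size of its error. Ppic encodes cyclophilin C, also of the secretory pathway. It read 0.10, 0.31 and 0.06 in control cells, -0.09, 0.08 and 0.01 at 10 nM, 0.11, 0.15 and 0.44 at 100 nM, and 0.13, 0.16 and 0.07 at 1 µM. The 10 nM arrays held the lowest and the 100 nM arrays the highest Ppic value, and both groups overlapped the control arrays. The change between those doses, 0.23 ± 0.16 (SE), did not pass (limma adjusted p = 0.999), although the arrays of those doses did not overlap.

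Ppif encodes cyclophilin D of the mitochondrial matrix, a regulator of the permeability transition pore. It read 0.08, 0.36 and 0.25 in control cells, -0.32, 0.09 and 0.23 at 10 nM, -0.05, 0.26 and -0.21 at 100 nM, and 0.24, 0.06 and -0.02 at 1 µM. The control arrays were all above 0 and each dose had at least 1 array below 0, but all groups overlapped, and in the uncentred values only 5 of 12 arrays were above 0. Its changes were -0.23 ± 0.19 (SE) at 10 nM, -0.23 ± 0.19 at 100 nM and -0.14 ± 0.19 at 1 µM, all against the same 3 control arrays.

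Of the nuclear members, Ppie read 0.68, 0.31 and 0.61 in control cells, 0.28, 0.16 and 0.51 at 10 nM, 0.39, 0.26 and 0.40 at 100 nM, and 0.29, 0.53 and 0.09 at 1 µM. Control replicates 1 and 3 were the highest of the 12 arrays, and control replicate 2 lay among the dose arrays. Its changes were -0.21 ± 0.18 (SE), -0.18 ± 0.18 and -0.23 ± 0.18 at the rising doses, and the last had an unadjusted limma p of 0.223, the smallest of any cyclophilin probe at any dose. Ppig read 0.73, 1.02 and 0.19 in control cells, 1.08, 0.83 and 0.51 at 10 nM, 1.24, 0.24 and 0.44 at 100 nM, and 1.11 and 0.21 on the 2 arrays measured at 1 µM. It was the most variable member, with values over a range of 1.05 and overlapping groups. Its change at 1 µM, from those 2 arrays, was 0.02 ± 0.37 (SE), and it was -0.43 without replicate 1 and 0.47 without replicate 2. With the replicate number as a fixed block this change was -0.14 ± 0.30 (SE), as replicate 3 has no value at 1 µM.

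Ppil1 binds the spliceosome factor Snw1. It read 0.55, 0.56 and 0.78 in control cells, 0.49, 0.59 and 0.81 at 10 nM, 0.58, 0.47 and 0.57 at 100 nM, and 0.53, 0.72 and 0.44 at 1 µM. Its 12 values covered only 0.37, the narrowest range of the cyclophilin probes, and the groups overlapped. Ppih, which binds Prpf4 in the tri-snRNP of the spliceosome, read 0.15, -0.21 and -0.20 in control cells, 0.02, 0.02 and -0.25 at 10 nM, 0.24, -0.13 and 0.20 at 100 nM, and 0.17, 0.10 and -0.15 at 1 µM. Ppil2, which carries a U-box, the fold of a ubiquitin ligase, read -0.10, -0.20 and 0.19 in control cells, 0.01, -0.05 and 0.15 at 10 nM, -0.15, -0.10 and -0.17 at 100 nM, and -0.07, 0.05 and -0.14 at 1 µM. Every Ppil2 array at 100 nM was below 0, but control replicate 2 was lower still. The 100 nM and 10 nM arrays did not overlap for Ppil2, as for Ppic: these were 2 of 10 cyclophilin probes measured on all 6 arrays, beside 10.5% of all such probes. Between 1 µM and 100 nM the count was 0 of 9, beside 9.74%. The change of Ppih at 100 nM against control was 0.19 ± 0.18 (SE) and that of Ppil2 was -0.10 ± 0.16.

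No cyclophilin probe passed the test at any dose of Shld1. The limma fit called 0 of 11 at 10 nM, where 0% of the 30357 probes were called, 0 of 11 at 100 nM (0% of all) and 0 of 11 at 1 µM (0.00329% of all, a single probe). At an unadjusted limma p under 0.05 the count of cyclophilin probes was also 0 at each dose, beside 812, 980 and 1284 of all 30357 probes. Those shares are too small for a count of 0 of 11 to set the cyclophilins apart. The linear trend over dose rank, the F test over the 3 doses and the step from 100 nM to 1 µM also called 0 of 11 (0.00329% of all for each), as did the step from 10 nM to 100 nM (0% of all). None of the 11 had an unadjusted p under 0.05 in the F test, beside 3.31% of all probes, and their p ran from 0.538 to 0.949. Of all probes, 53.1% had an F test p of 0.538 or more. No neighbouring groups could therefore be put in order for any member.

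The interval of each change gives the sizes of change that these arrays leave possible. It does not give the smallest change that would have been called. The 95% intervals of all 11 probes lay within a doubling in either direction at each dose, as did those of 80.0%, 80.4% and 77.9% of all probes at 10 nM, 100 nM and 1 µM. The widest reach was that of Ppig, from 1.74-fold lower at 1 µM, with 2 arrays, to 1.86-fold higher at 10 nM. For Ppia probe 25599 at 1 µM the interval ran from -0.42 to 0.35, and for Ppil1 from -0.41 to 0.28. Every interval included 0, so no estimated change was told apart from 0 with the 2 or 3 arrays a group.

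**Figure D4:**
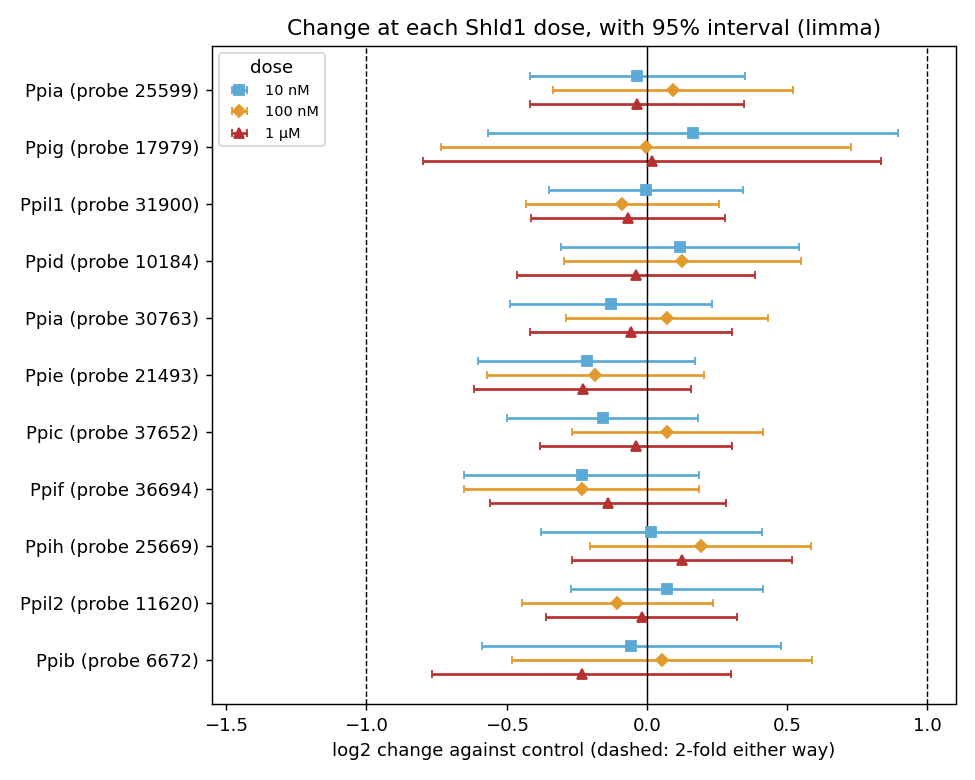
Log2 change against control (x axis) at each Shld1 dose for the 11 cyclophilin probes (y axis), with 95% intervals from limma and dashed lines at 2-fold either way. All intervals cross 0 and lie between the dashed lines, and the widest are those of Ppig.

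As a list, the 11 probes had a median change of -0.03 at 10 nM (4 above 0), 0.05 at 100 nM (6 above 0) and -0.04 at 1 µM (2 above 0), with the same control arrays in each. The medians of all probes were 0.00, 0.02 and -0.01. The median size of a change was 0.12, 0.09 and 0.05 for the cyclophilins and 0.15, 0.15 and 0.16 for all probes. The cyclophilin probes also had smaller errors, with a median SE of 0.18 at each dose, beside 0.24 for all probes. By single values, no cyclophilin probe measured on all 3 arrays of both groups had dose arrays wholly apart from the control arrays (0 of 11, 0 of 10 and 0 of 10, beside 6.67%, 8.15% and 7.38% of all such probes). The smallest p of the exact two-sided permutation test was 0.2, where 3 arrays against 3 cannot go below 0.1.

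Other isomerases, known partners and common reference genes were also at 0 calls. Of 103 listed genes in 9 lists, 91 were measured, and none passed at any dose or in the F test, as for all 14523 genes at the level of 1 value per gene. At an unadjusted p under 0.05 in the F test there were 2 of these 91 and 422 of all genes. Of 6 measured members of the 7 other cyclophilins, 4 had higher ratios in control cells than the reference and 0 lower, beside 3850 higher and 2845 lower of all genes. They were Ppil4 at 1.04 ± 0.28, Ranbp2, the nuclear pore protein, at 0.91 ± 0.32, Ppwd1 at 0.86 ± 0.32 and Ppil3 at 0.54 ± 0.10 (n = 3 each). Nktr at -0.33 ± 0.47 and Cwc27 at -0.11 ± 0.49 did not pass. Their median changes were 0.19 at 10 nM, 0.06 at 100 nM and -0.02 at 1 µM, beside -0.01, 0.02 and -0.02 for all genes.

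The FK506-binding proteins, the other family of drug-binding isomerases and the source of the domain that Shld1 binds, had 13 of 15 genes measured. In control cells 5 were called higher than the reference and 2 lower, beside 26.5% and 19.6% of all genes, and their median changes were -0.01, 0.05 and -0.05 at the rising doses. Fkbp5, an Hsp90 co-chaperone like Ppid, had the smallest F test p of the family, with changes of -0.21 ± 0.17 (SE), -0.41 ± 0.17 and -0.32 ± 0.17 that did not pass (limma F test adjusted p = 1). The parvulin Pin4, the measured gene of 2 listed, had a control ratio of -0.11 ± 0.34 (n = 3).

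Among the 16 genes of folding in the endoplasmic reticulum and of collagen, 5 were called higher and 4 lower than the reference in control cells, beside 26.5% and 19.6% of all genes. The partners of Ppib stood above it, Crtap at 1.07 ± 0.07 and P3h1 at 0.34 ± 0.07 (n = 3 each), where Ppib itself was at -0.10 ± 0.37. At 1 µM the change of Crtap was -0.31 ± 0.17 (SE) and that of P3h1 was 0.05 ± 0.14. Calr, the calcium-binding chaperone calreticulin, had changes of 0.95 ± 0.30 (SE), 0.46 ± 0.30 and 0.24 ± 0.30 at the rising doses. Those of Pdia6, a disulfide isomerase, were -0.50 ± 0.24 (SE), -0.31 ± 0.24 and -0.78 ± 0.27. Pdia6 was measured on 11 of 12 arrays, with a value missing at 1 µM. Neither passed in the F test over all genes (limma adjusted p = 1 for both). The median changes of the 16 genes were -0.00, 0.06 and 0.02.

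Of the 15 splicing partners of the nuclear cyclophilins, 5 were called higher and 1 lower than the reference, beside 26.5% and 19.6% of all genes. The helicase Aqr had the smallest F test p, with changes of -0.46 ± 0.18 (SE), -0.49 ± 0.18 and -0.09 ± 0.21 (adjusted p = 1, limma). Aqr was measured on 11 of 12 arrays, with a value missing at 1 µM. Isy1 stood at 0.89 ± 0.06 (n = 3) in control cells. Of the 10 measured Hsp90 partners of Ppid, 6 were called higher and 2 lower, beside the same shares. Stip1, which links Hsp70 and Hsp90, stood at 0.47 ± 0.20 and Cdc37, the kinase co-chaperone, at -0.83 ± 0.24 (n = 3 each), and their changes at 1 µM were -0.02 ± 0.19 and 0.23 ± 0.19 (SE).

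Of 8 measured mitochondrial partners of Ppif, 3 were called higher and 2 lower than the reference, beside 26.5% and 19.6% of all genes. The adenine nucleotide carrier Slc25a5 stood at 0.85 ± 0.16 and the channel Vdac2 at -0.33 ± 0.23 (n = 3 each). Of 9 measured genes of calcineurin, NFAT and the cyclophilin A receptor, 1 was called higher and 2 lower, beside the same shares. Rcan1, an inhibitor of calcineurin that is also a target of NFAT, stood at -0.78 ± 0.45 (n = 3), and its change at 1 µM was 0.36 ± 0.26 (SE). The median changes at 1 µM were 0.02 for the mitochondrial list and -0.04 for the calcineurin list.

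The ratios of most cyclophilins varied little over the arrays. The residual SD of the limma fit, as moderated toward a common value, was compared over all tested probes. It was under the 25th percentile for 9 of 11 cyclophilin probes, and above the median for Ppib and Ppig. Over the 12 arrays, taking 1 value per gene, Ppil1 had an SD of 0.12 (percentile 3.67 of 12984 genes), Ppil2 0.12 (5.03), Ppic 0.14 (7.98) and Ppia 0.15 (10.8). Ppib was at 0.29 (62.4), and 8 of the 9 cyclophilins measured on every array were below the median gene, at 0.25. Of 13 genes commonly used as expression references 12 were below it, among them Tbp at 0.06, Hprt at 0.08, Actb at 0.11 and Gapdh at 0.13. Of these 4, each had a smaller SD than Ppia. No test of this order was made, and genes with several probes are averaged, which can lower their SD. Tbp had 79 probes, Hprt 78, Actb 32 and Gapdh 30, while the Ppia value came from 1. Their SDs are therefore not compared like for like.

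**Figure D5:**
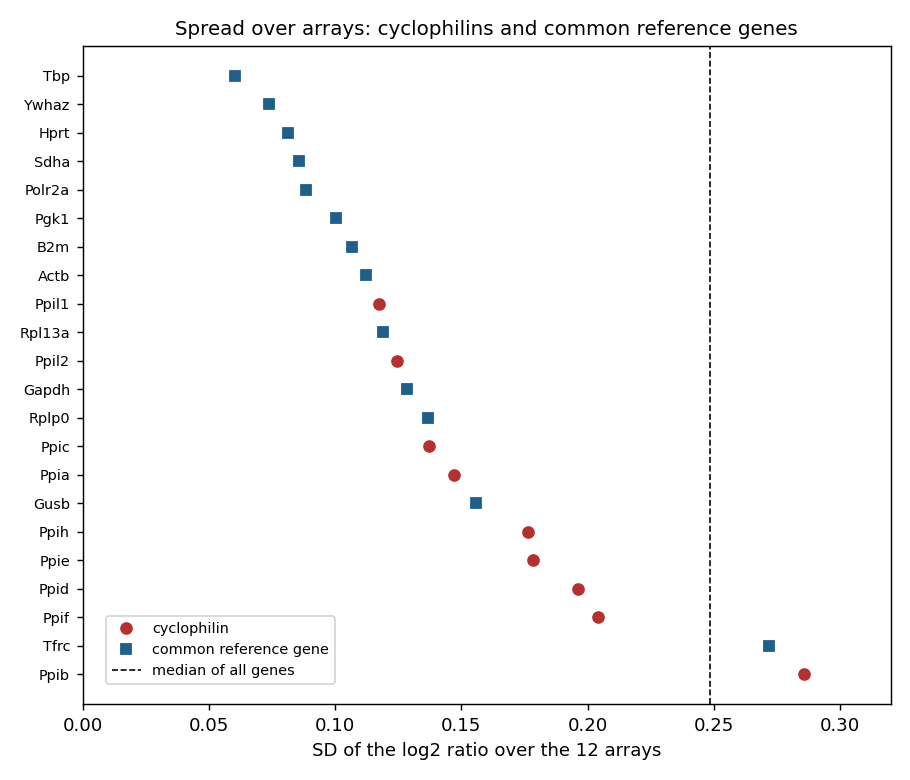
SD of the log2 ratio over the 12 arrays (x axis) for 9 cyclophilins and 13 common reference genes (y axis, sorted), with the median of 12984 genes as a dashed line. Ppil1 and Ppil2 (both 0.12) sit among the reference genes, Tbp, with 79 probes, is lowest at 0.06, and Ppib (0.29) and Tfrc (0.27) lie above the median.

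Few pairs of probes correlated over the arrays, and no pair passed a test. The Ppia probes, annotated to the same transcript record, correlated at only 0.291 (n = 11 arrays). A low r between members therefore does not show that they varied apart. Of 55 pairs of probes the median Pearson r was 0.088, and 0 passed after adjustment by a permutation test of 100000 resamples. The highest was Ppil1 with Ppil2, at r = 0.785 (permutation p = 0.00419, adjusted 0.23; rho = 0.503, permutation p = 0.0977, adjusted 0.793; n = 12 arrays). Without control replicate 3 and 10 nM replicate 3, the arrays where Ppil1 lay farthest from its median, it fell to 0.385. Leaving out such arrays also narrows the range, so the fall alone does not show what this correlation rests on. The lowest was Ppic with Ppil2, at -0.554.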

How the data were processed

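The values are log2 ratios that the authors deposited in the series' value table, 1 per probe and array; the log base is not stated there. How they were normalized, background-corrected and filtered is not stated in the sources used here, and scanner intensities were not analysed here. Probes were named from the platform annotation (26173 with 1 symbol, 28 with several, 12583 with none).

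After centring arrays on their medians, the 30357 probes measured on at least 2 of 3 arrays in each group entered a limma 3.58.1 model of group (R 4.3.3), with Benjamini-Hochberg adjustment over all of them at 0.05. Values by gene average the probes measured on all 12 arrays (for Ppia, probe 30763) or, with none, take the probe with most values. Alternatives were other scaling, filters, variance models and blocks, pairs of groups alone, 1 value per gene, and leaving out each array. Figures used matplotlib 3.10.9 in Python 3.11.15.

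The members and lists were chosen with earlier results of these data known. All members are named; of other lists, the 4 genes with the smallest F test p were eligible, plus genes called; Tbp, Hprt, Tfrc and the other reference genes of the SD plot, and the cell markers, were named after their values were seen.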

Additional observations from a re-analysis of the deposited data

How the results depend on the processing

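No cyclophilin probe was called at any dose, in the trend, the F test or a step between doses under any of the 22 or 23 alternatives run for each. Over all alternatives 750 dose values were recomputed, with a lowest adjusted p of 0.909 (limma). The sign turned in 47. The moves beyond the spread were those of Ppig at 1 µM, -0.43 without 1 µM replicate 1 and 0.47 without 1 µM replicate 2. Against the reference, the count of 6 called probes was 3 without centring, 3 after quantile normalization, and 3 to 6 with an array left out. The median control ratio of the 11 probes was 0.42, but 0.27 without centring and 0.29 after quantile normalization. Without centring each ratio fell by 0.10 to 0.20, the size of its array's median. No probe called against the reference changed sign. With the replicate number as a block, 0 cyclophilin probes were called at any dose and 6 against the reference, as without it. The array serials in the titles run in order by replicate number, but the labels do not say what a number shares. Deviations of same-numbered arrays correlated at -0.104 to 0.253 (9 of 18 pairs above 0.1, median 0.0953), against a median of -0.0582 for the 36 other pairs. Of 12 arrays, 8 had their highest mean correlation with their own number, which is a hint of pairing from the data and was not used. Deviations from a group mean sum to 0, so the values of same-numbered and other pairs are not independent of each other. Fits of groups in pairs hold no trend or F test over the doses, and the comparison with the reference was not taken from them. Depth and signal over background are unknown here, and 3 arrays a group limit the precision.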

Other observations

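The genes whose ratios followed those of 3 cyclophilins most closely over the 12 arrays, among 12983 genes measured on all of them, are given as a description. For Ppia (probe 30763) they were Cnbp (Pearson r = 0.928), Gemin5 (0.904) and Snx16 (0.876). For Ppib they were Nedd8 (0.921), Psmb1 (0.912) and Il17ra (0.906). For Ppif they were Tax1bp1 (0.838), Eif3e (0.813) and Armh3 (0.797). The 12 points share the reference RNA and the array, and the highest of many correlations over 12 arrays is large by selection. The reference genes Rpl13a and Gusb had control ratios of 0.64 ± 0.18 and -0.75 ± 0.14 (SD, n = 3), Gapdh one of -0.41 ± 0.15 and Polr2a one of 0.02 ± 0.09.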
